A study of Mus musculus with 20 samples.

Results

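This section compares the amygdala of NCoR1-KO mice directly with the amygdala of SMRT-KO mice at postnatal day 21. The members were all amygdala libraries labelled NCoR1-KO (3 libraries) and SMRT-KO (3 libraries), 6 of the 20 libraries of the series. The comparison covered the 14606 genes that reached 1 TPM (a relative unit that divides out transcript length and the library's total) in at least 3 of the 10 amygdala libraries. The study asked what NCoR1, SMRT or both do in neurons, and measured bulk RNA of amygdala and hippocampus. NCoR1-KO mice combine floxed NCoR1 alleles with Snap25-IRES2-cre, a Cre driver active in neurons throughout the brain. SMRT-KO mice combine floxed SMRT alleles with that same driver. The 4 amygdala control libraries come from mice labelled only as control, with no statement on Cre or floxed alleles. Cre is driven from a neuronal gene, while the bulk samples also hold glia and vessels. Whether libraries of one group come from separate animals is not stated, so each p-value reflects only how far these samples scatter, and part of that scatter may be technical.

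NCoR1 (gene Ncor1) and SMRT are paralogous corepressors. Without hormone, nuclear receptors such as those for thyroid hormone and retinoic acid hold either protein at their target genes, and each protein brings histone deacetylase 3 (Hdac3) there to silence transcription. In the brain they are known for their part in thyroid hormone signalling and in the timing of neural differentiation. The amygdala is a group of nuclei in the temporal lobe. It borders the striatum, the piriform cortex and white matter, and its medial part lies near the hypothalamus.

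The 10 amygdala libraries were alike in genes detected, with 14153 to 14509 genes at 1 TPM or more, and any pair correlated across genes with r of 0.973 to 0.995. Of the libraries compared, 2 carried transcripts of liver. A list of 24 liver genes, written after these values were seen, summed to 4.05, 319.64 and 791.85 TPM in NCoR1-KO against 3.03, 5.01 and 4.34 TPM in SMRT-KO, with 3.87, 336.52, 6.37 and 3.77 TPM in control. NCoR1-KO 2, NCoR1-KO 3 and control 2 thus stood apart, and no liver gene passed the test. Hippocampus libraries of those same labels held 64.84, 482.08 and 59.05 TPM, and the others 2.37 to 4.71 TPM. Among the genes tested, 3 others split the libraries in another way, and were also picked after their values were seen. The search took 1 division only, NCoR1-KO with controls 1 and 2 against SMRT-KO with controls 3 and 4. AA465934 was at 76.63, 71.41 and 61.32 TPM in NCoR1-KO against 3.09, 2.83 and 2.83 TPM in SMRT-KO, with 127.99, 78.63, 5.64 and 4 TPM in control. Controls 1 and 2 were therefore at the level of NCoR1-KO and controls 3 and 4 at that of SMRT-KO. The genes 2610507I01Rik and Gm1821 divided the libraries the same way, as the search required, and other divisions of the controls were not searched. Differences between the 2 knockout lines that do not come from the deleted genes cannot be told apart from those that do.

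Ncor1 fell in NCoR1-KO amygdala to 29.7% of its SMRT-KO level. It measured 32.06, 34.59 and 39 TPM in NCoR1-KO against 123.54, 114.10 and 118.05 TPM in SMRT-KO, with 71.28, 117.39, 118.60 and 126.54 TPM in control. Every NCoR1-KO library lay below every other library, and control 1 lay apart from the other controls. The difference was -1.73 ± 0.18 (log2(TPM + 1) scale, standard error) with an adjusted p of 0.0013 in limma. The gene lies at chr11:62316426-62458541 on the minus strand of mm10. Snap25, whose locus drives Cre, measured 1200.82, 1123.47 and 1228.35 TPM in NCoR1-KO against 1053.36, 1206.78 and 1113.65 TPM in SMRT-KO, with 1926.80, 2153.71, 1824.66 and 2228.47 TPM in control. The knockouts overlapped there, at a difference of 0.08 ± 0.08 and an adjusted p of 0.568, and all control libraries were higher, with adjusted p of 0.00732 for NCoR1-KO and 0.00507 for SMRT-KO against control. Exact two-sided permutation tests of NCoR1-KO against SMRT-KO gave p = 0.1 for Ncor1, the smallest that 20 arrangements allow, and p = 0.3 for Snap25.

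**Figure D1:**
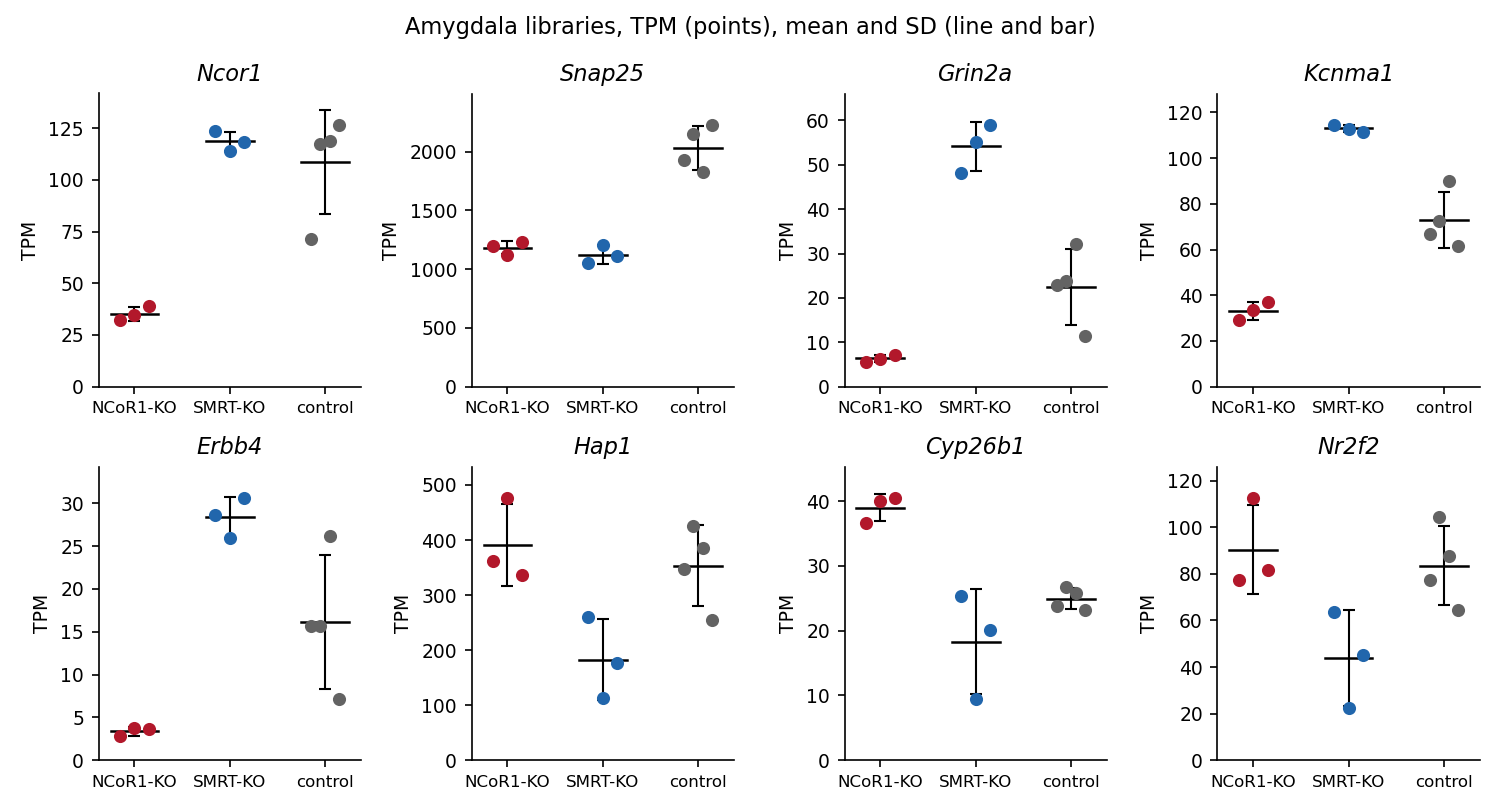
TPM of 8 genes in each amygdala library (points), for NCoR1-KO, SMRT-KO and control from left to right, with the group mean (line) and standard deviation (bar). Ncor1 is at 32.06 to 39 TPM in NCoR1-KO against 114.10 to 123.54 TPM in SMRT-KO, and Grin2a, Kcnma1 and Erbb4 are also lower in all NCoR1-KO libraries, while Hap1, Cyp26b1 and Nr2f2 are higher.

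Of the 14606 genes tested, 1679 (11.5%) differed between NCoR1-KO and SMRT-KO amygdala at an adjusted p under 0.05. Higher in NCoR1-KO were 735 genes (5.03%) and lower were 944 genes (6.46%). The lower genes moved further, with a median difference of -0.51 against 0.31 for the higher ones, and 111 lower genes but 16 higher genes passed 1 log2 unit. The median over all genes tested was -0.0002. Every NCoR1-KO library lay above every SMRT-KO library for 18.8% of the genes tested and below for 19.6%. Counts of gene lists given below are to be read beside these shares of all genes. Against control, the fit called 60 genes in NCoR1-KO (0.411%) and 16 in SMRT-KO (0.11%). These comparisons share libraries.

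The count moved with the libraries left out. It was 647 without NCoR1-KO 1, 344 without NCoR1-KO 2 and 911 without NCoR1-KO 3, and 1845 without SMRT-KO 1, 335 without SMRT-KO 2 and 246 without SMRT-KO 3. Leaving out the 3 libraries with liver transcripts kept NCoR1-KO 1 as the only library of its group, with no spread of its own. Calls of that fit are therefore not counted on their own here. With each library left out in turn, 219 genes passed every time, 44 of them higher and 175 lower. Where calls of several genes are given below as lost without certain libraries, leaving out any 1 of those libraries ended each of the calls. Further single libraries ended some of these calls as well, and are not all listed. The groups also differed in markers of myelin and of striatum, described further on. With the score of the oligodendrocyte list as a covariate 25 genes passed, and with that of the striatum list 31 passed. With either covariate 21 genes were called, all lower in NCoR1-KO. The scores did not overlap between the knockouts, so the score and the genotype cannot be told apart. A call kept with a covariate does not separate them either, and each score was entered on its own.

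Each of the 14 ranked genes with the largest falls in NCoR1-KO kept its call whichever library was left out. Lnpep, an aminopeptidase that cleaves oxytocin and vasopressin, measured 3.40, 4.12 and 3.38 TPM in NCoR1-KO against 38.35, 38.36 and 43.21 TPM in SMRT-KO, with 18.28, 17.91, 34.18 and 8.49 TPM in control. The Lnpep difference was -3.15 ± 0.34 (adjusted p = 0.0014). Grin2a, the GluN2A subunit of the NMDA receptor (chr16:9567898-9995560, minus strand), measured 5.6, 6.30 and 7.24 TPM in NCoR1-KO against 48.18, 55.23 and 58.97 TPM in SMRT-KO, with 22.87, 23.70, 32.22 and 11.33 TPM in control. For both genes the knockouts lay on opposite sides of all 4 controls. The Grin2a difference was -2.90 ± 0.28 (adjusted p = 0.00108).

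Erbb4, the neuregulin receptor of cortical interneurons (chr1:68032186-69108059, minus strand), measured 2.78, 3.73 and 3.62 TPM in NCoR1-KO against 28.59, 25.88 and 30.56 TPM in SMRT-KO, with 15.62, 15.70, 26.22 and 7.09 TPM in control. Control 3 reached into the SMRT-KO range. The Erbb4 difference was -2.75 ± 0.33 (adjusted p = 0.00213). Bmpr2, the type II receptor for bone morphogenetic proteins (chr1:59763400-59879014, plus strand), measured 9.32, 13.94 and 14.62 TPM in NCoR1-KO against 78.91, 79.61 and 85.43 TPM in SMRT-KO, with 49.09, 46.75, 68.76 and 32.38 TPM in control. Again the knockouts lay on opposite sides of all controls, and the difference was -2.62 ± 0.23 (adjusted p = 0.00086). In both genes control 3 was the highest and control 4 the lowest of the controls, an order also seen in Lnpep and Grin2a.

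The other 10 of the 14 lay between -2.97 and -2.02. They were the diacylglycerol kinase Dgkh, the potassium channels Kcnh7 and Kcnh5, the transposon-derived transcription factor Zbed6, Ptar1, Gprin3, the XK-family member Xkr4, Tmem245, the tyrosine phosphatase Ptpn4 and the Argonaute gene Eif2c3. Unlike the receptors above, Kcnh5 overlapped between NCoR1-KO and control. Kcnh5 measured 3.98, 2.55 and 3.31 TPM in NCoR1-KO against 15.88, 28.87 and 20.54 TPM in SMRT-KO, with 5.59, 2.91, 8.82 and 3.48 TPM in control. Eif2c3 measured 2.63, 2.67 and 3.33 TPM in NCoR1-KO against 14.83, 14.95 and 14.11 TPM in SMRT-KO, with 5.44, 6.65, 10.66 and 3.35 TPM in control, where control 4 came close to NCoR1-KO. Zbed6 overlaps another gene on its strand, so its reads can be assigned to either.

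The ranked genes higher in NCoR1-KO had smaller differences, between 0.93 and 1.36. Predicted and clone-named genes were not ranked, and some of those called had larger rises, such as AA465934 (4.17) and 8430408G22Rik (1.93). Among such genes 2610507I01Rik fell by 3.10. Barhl2, a homeobox factor of the developing diencephalon, led the ranked rises, at 4.84, 5.14 and 4.85 TPM in NCoR1-KO against 1.99, 0.83 and 1.26 TPM in SMRT-KO, with 3.23, 3.88, 3.41 and 2.72 TPM in control (1.36 ± 0.17, adjusted p = 0.00289). Hap1, the huntingtin-associated protein abundant in hypothalamus (chr11:100347327-100356128, minus strand), measured 362.16, 475.62 and 335.67 TPM in NCoR1-KO against 259.41, 112.32 and 176.59 TPM in SMRT-KO, with 347.82, 425.94, 385.04 and 254.57 TPM in control. NCoR1-KO overlapped control, and SMRT-KO 2 and SMRT-KO 3 stood below every control. The Hap1 difference was 1.16 ± 0.27 (adjusted p = 0.0267), and Hap1 overlaps another gene on its strand.

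Cyp26b1, the enzyme that degrades retinoic acid (chr6:84571414-84593908, minus strand), showed another order. It measured 36.59, 40.03 and 40.44 TPM in NCoR1-KO against 25.36, 9.44 and 20.12 TPM in SMRT-KO, with 23.86, 26.80, 25.81 and 23.27 TPM in control, so that NCoR1-KO exceeded every control (1.15 ± 0.26, adjusted p = 0.0227). Nr2f2, the orphan receptor COUP-TFII of caudal ganglionic eminence and medial amygdala neurons, measured 77.49, 112.42 and 81.47 TPM in NCoR1-KO against 63.71, 22.40 and 45.21 TPM in SMRT-KO, with 77.48, 104.62, 87.79 and 64.34 TPM in control (1.13 ± 0.31, adjusted p = 0.0432). Magel2 and Baiap3, both strongly expressed in hypothalamus, rose by 1.29 ± 0.29 (adjusted p = 0.0229) and 1.23 ± 0.29 (adjusted p = 0.0282). SMRT-KO 2 was the lowest library of all for Hap1, Cyp26b1, Nr2f2, Magel2 and Baiap3.

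The remaining 8 of the 14 rises were Ccdc42, the sperm phospholipase Plcz1, Glod5, Arhgap36, Ctxn2, the adaptor subunit Ap1g2, the small GTPase Rasl11a and Zcchc12. Of all 14, the calls of Barhl2, Plcz1 and Rasl11a were kept with every library left out. Rasl11a measured 19.06, 19.63 and 17.91 TPM in NCoR1-KO against 10.17, 9.71 and 8.16 TPM in SMRT-KO, with 13.11, 16.14, 11.29 and 10 TPM in control. The calls of the other 11 were lost without NCoR1-KO 2 or SMRT-KO 3, at adjusted p of up to 0.162 with single libraries left out.

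**Figure D2:**
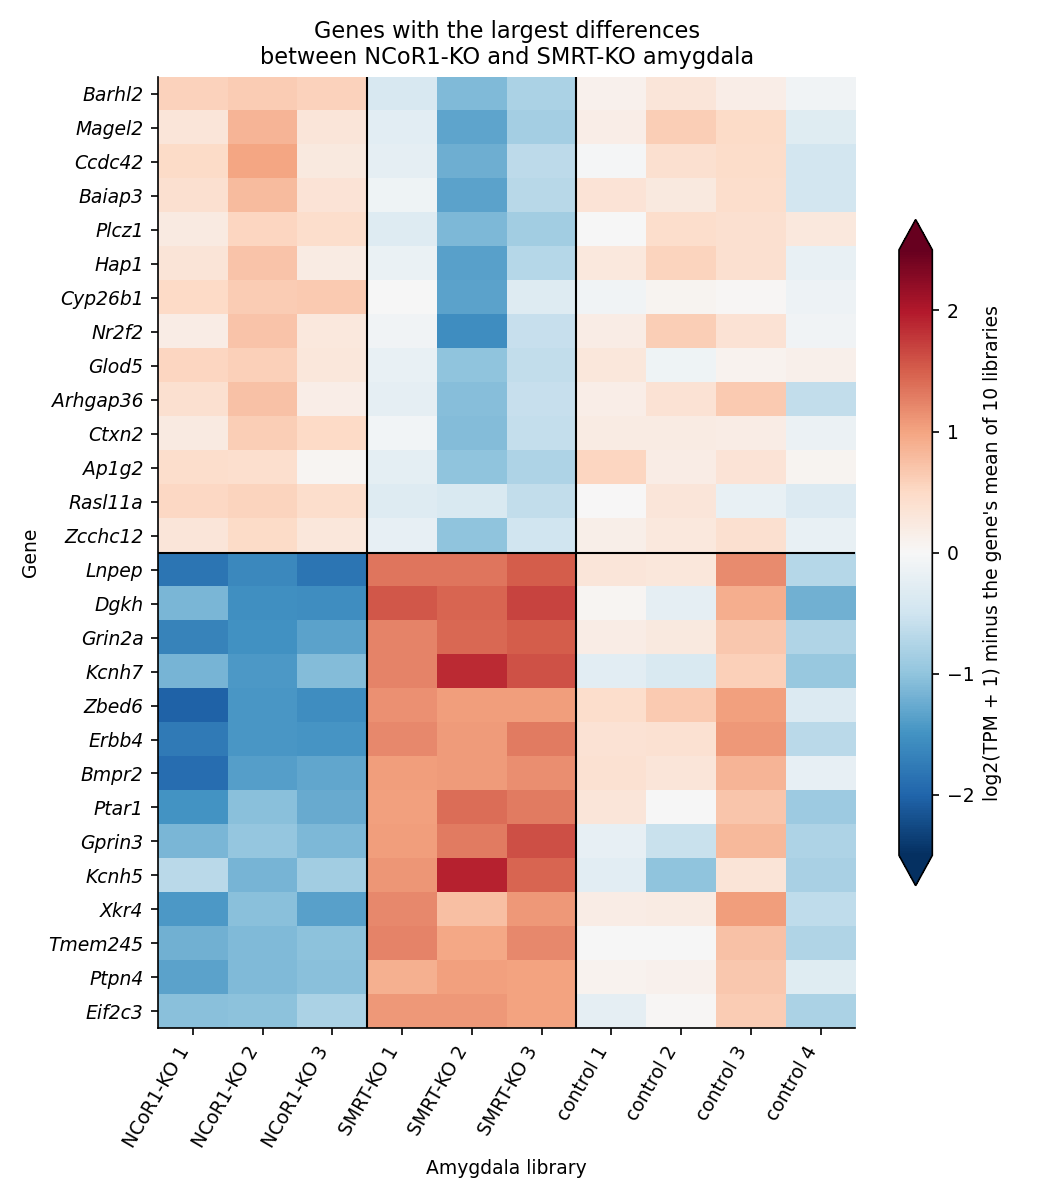
Level of the 14 ranked genes that rose (upper block) and the 14 that fell (lower block) in NCoR1-KO against SMRT-KO. Predicted and clone-named genes were left out of the ranking, some with larger differences. Values are log2(TPM + 1) minus the gene's mean over the 10 amygdala libraries. Columns are the NCoR1-KO, SMRT-KO and control libraries. The lower block is low in all NCoR1-KO and high in all SMRT-KO libraries, with control 3 high and control 4 low among the controls.

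Promoters are shown for 3 of these genes because each holds a motif that was searched. Nuclear receptors, through which both corepressors reach DNA, bind the half-site AGGTCA. Of the 28 genes, 23 had a RefSeq promoter (build GRCm38.p6), read here as the 250 bases before the start site, on either strand. AGGTCA occurred in 2 of the 23, beside 15.8% of the promoters of 27025 gene symbols. The E-box CACGTG, bound by the clock factors, occurred in 2, Dgkh and Gprin3, beside 6.86%, and the cAMP response element TGACGTCA in 0, beside 1.77%. The 3 promoters are those of Arhgap36 at chrX:49463695-49463944 (plus strand), Ap1g2 at chr14:55106594-55106843 (minus strand) and Gprin3 at chr6:59426307-59426556 (minus strand), each written along the gene's strand with matches in capitals (TGACCT is the half-site on the opposite strand).
Arhgap36: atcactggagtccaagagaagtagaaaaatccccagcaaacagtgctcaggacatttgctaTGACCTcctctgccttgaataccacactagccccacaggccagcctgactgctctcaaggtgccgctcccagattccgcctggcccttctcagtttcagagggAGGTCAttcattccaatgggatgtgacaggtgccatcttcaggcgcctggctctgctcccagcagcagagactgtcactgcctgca
Ap1g2: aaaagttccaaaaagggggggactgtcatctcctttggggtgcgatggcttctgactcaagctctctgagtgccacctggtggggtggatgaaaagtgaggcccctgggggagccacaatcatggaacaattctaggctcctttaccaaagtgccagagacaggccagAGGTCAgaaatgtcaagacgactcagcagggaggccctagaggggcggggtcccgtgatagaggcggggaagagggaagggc
Gprin3: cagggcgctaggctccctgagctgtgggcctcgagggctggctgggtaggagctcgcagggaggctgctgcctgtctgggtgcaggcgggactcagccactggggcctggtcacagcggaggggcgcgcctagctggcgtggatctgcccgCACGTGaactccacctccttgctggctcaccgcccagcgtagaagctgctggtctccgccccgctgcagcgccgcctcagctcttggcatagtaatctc
The genes carrying the half-site rose: Arhgap36, of a family of GTPase activating proteins, by 1.05 ± 0.30 (adjusted p = 0.0467) and Ap1g2 by 0.97 ± 0.19 (adjusted p = 0.016). Gprin3, a binding partner of G proteins, fell by 2.39 ± 0.33 (adjusted p = 0.00435). A match describes the letters in the window and is no evidence of binding.

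Among 24 genes of the corepressor complex and its partners, 2 rose and 4 fell in NCoR1-KO, Ncor1 itself among those that fell, and the list median was 0.05. Hdac3, the deacetylase both corepressors activate, measured 133.14, 137.34 and 130.22 TPM in NCoR1-KO against 119.94, 112.10 and 113.56 TPM in SMRT-KO, with 137.46, 125.92, 132.21 and 131.22 TPM in control. It rose by 0.21 ± 0.05 (adjusted p = 0.0241), with SMRT-KO below every control. Nsd1, a histone H3 methyltransferase, fell by 0.43 ± 0.08 (adjusted p = 0.0127), and Tle4, a Groucho corepressor, fell by 0.42 ± 0.09 (adjusted p = 0.0227). The Hdac3 and Tle4 calls were lost without NCoR1-KO 1, NCoR1-KO 2, SMRT-KO 2 or SMRT-KO 3, at adjusted p of up to 0.0942 with single libraries left out, and the Nsd1 call was kept.

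Of 36 nuclear receptors, 2 rose and 6 fell in NCoR1-KO, with a median of -0.09. Rora, an orphan receptor needed for Purkinje cell and thalamic development (chr9:68653786-69388246, plus strand), shared the smallest adjusted p of the comparison with Kcnma1. It measured 10.50, 8.51 and 9.34 TPM in NCoR1-KO against 27.73, 33.55 and 31.76 TPM in SMRT-KO, with 19.60, 15.29, 20.30 and 17.63 TPM in control (-1.62 ± 0.12, adjusted p = 0.000223). All 4 controls lay between the knockouts. Nr3c1, the glucocorticoid receptor, fell by 0.38 ± 0.08 (adjusted p = 0.0235) and Pgr, the progesterone receptor, by 0.51 ± 0.11 (adjusted p = 0.0187). Nr1d1, the clock repressor REV-ERB alpha that itself recruits NCoR1, rose by 0.52 ± 0.10 (adjusted p = 0.0155). The calls of Nr3c1, Pgr and Nr1d1 were each lost without SMRT-KO 3, at adjusted p of up to 0.0914 with single libraries left out, and that of Rora was kept.

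The thyroid hormone receptors themselves did not pass. Thra measured 542.49, 586.84 and 528.14 TPM in NCoR1-KO against 550.36, 465.79 and 503.93 TPM in SMRT-KO, with 577.27, 638.12, 555.84 and 570.60 TPM in control, with overlap of the knockouts. Thrb differed by -0.10 ± 0.13 (adjusted p = 0.635). Of 27 genes known to be induced by the hormone, 1 rose and 6 fell in NCoR1-KO, and the list median was -0.33. Hr, the receptor-bound corepressor Hairless and a direct target of the hormone, measured 10.38, 7.07 and 8.20 TPM in NCoR1-KO against 13.75, 34.98 and 21.95 TPM in SMRT-KO, with 12.26, 5.87, 8.77 and 10.37 TPM in control (-1.28 ± 0.31, adjusted p = 0.0278).

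Sema7a, an axon growth cue, measured 46.44, 38.26 and 49.78 TPM in NCoR1-KO against 63.74, 119.35 and 91.75 TPM in SMRT-KO, with 45.32, 38.10, 40.89 and 54.06 TPM in control (-0.98 ± 0.20, adjusted p = 0.0176). In both Hr and Sema7a the SMRT-KO libraries exceeded all controls while NCoR1-KO lay among them. Pvalb, the calcium buffer of fast-spiking interneurons, fell by 1.63 ± 0.33 (adjusted p = 0.0179), and Cadm2, an adhesion molecule, by 0.55 ± 0.10 (adjusted p = 0.0103). Hcrtr1, given below with its hippocampal values, was the member that rose. The calls of Hr, Sema7a, Cadm2 and Pvalb were lost without SMRT-KO 3, at adjusted p of up to 0.0972 with single libraries left out. Markers of striatum and of cortex were lower in NCoR1-KO as well, with list medians of -1.08 and -0.33. With the striatum score as a covariate the calls of Hr, Sema7a, Cadm2 and Pvalb were lost. That score did not overlap between the knockouts, so score and genotype cannot be told apart. The part of the cortex markers was not tested.

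Among 16 genes of thyroid hormone transport and deiodination, 1 rose and 2 fell. Dio2, the astrocytic deiodinase that makes active T3, measured 51.53, 47.10 and 53.26 TPM in NCoR1-KO against 70.09, 97.53 and 78.01 TPM in SMRT-KO, with 56.22, 64.02, 55.68 and 71.60 TPM in control. It fell by 0.67 ± 0.12 (adjusted p = 0.0122), with the knockouts not overlapping. Slco1c1, a thyroxine transporter of brain vessels and astrocytes, fell by 0.54 ± 0.11 (adjusted p = 0.0145). Slc7a8, an amino acid and iodothyronine transporter, rose by 0.34 ± 0.08 (adjusted p = 0.0278). All 3 calls were lost without NCoR1-KO 2, at adjusted p of up to 0.105 with single libraries left out.

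The calls among potassium channels went one way. Of 43 measured, 0 rose and 8 fell in NCoR1-KO, and the median was -0.21. For 18 of them every NCoR1-KO library lay below every SMRT-KO library, beside 19.6% of all genes tested. For 4 others every NCoR1-KO library lay above, beside 18.8%. Kcnma1, the large-conductance calcium-activated channel (chr14:23289431-24014491, minus strand), measured 29.14, 33.48 and 37.03 TPM in NCoR1-KO against 114.55, 112.87 and 111.63 TPM in SMRT-KO, with 66.94, 72.39, 90.05 and 61.75 TPM in control. It fell by 1.74 ± 0.12 (adjusted p = 0.000223), the smallest adjusted p of the comparison together with that of Rora. Kcnq3, a subunit of the M current, measured 20.35, 23.18 and 25.43 TPM in NCoR1-KO against 70.17, 62.83 and 79.03 TPM in SMRT-KO, with 49.02, 40.40, 56.95 and 39.81 TPM in control (-1.58 ± 0.14, adjusted p = 0.00086). In both genes control lay in the gap between the knockouts. Kcnh7, an ether-a-go-go-related channel, fell by 2.80 ± 0.31, and the axonal channels Kcna1 and Kcna2 fell by 0.69 ± 0.12 (adjusted p = 0.0086) and 0.53 ± 0.09 (adjusted p = 0.00959). The 5 channels Kcnma1, Kcnq3, Kcnh7, Kcna1 and Kcna2 kept their calls with every library left out.

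Of 25 sodium and calcium channel genes, 1 rose and 5 fell, at a median of -0.11. Cacnb4, a regulatory calcium channel subunit, measured 74.38, 76.15 and 92.51 TPM in NCoR1-KO against 124.87, 172.06 and 148.23 TPM in SMRT-KO, with 97.73, 85.00, 102.27 and 102.41 TPM in control (-0.86 ± 0.12, adjusted p = 0.00435). Its call was kept with every library left out. Scn1a, the sodium channel of fast-spiking interneurons, fell by 0.85 ± 0.16 (adjusted p = 0.0145), Cacna1i, a low-threshold calcium channel, by 0.57 ± 0.11 (adjusted p = 0.013) and Cacna2d3 by 0.67 ± 0.13 (adjusted p = 0.0145). Those 3 calls were lost without NCoR1-KO 2 or SMRT-KO 3, at adjusted p of up to 0.066 with single libraries left out.

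Calls among glutamate receptor subunits went both ways, NMDA receptor subunits included. Of 22 AMPA, kainate and NMDA receptor genes, 3 rose and 3 fell (27.3%, beside 11.5% of all genes tested), and the median was 0.02. Besides Grin1 the genes that rose were Grin2d, another NMDA receptor subunit (0.36 ± 0.10, adjusted p = 0.0451), and Cacng8, an auxiliary AMPA receptor subunit (0.35 ± 0.10, adjusted p = 0.0439), both singled out after their values were seen. Both calls were lost without NCoR1-KO 2, NCoR1-KO 3, SMRT-KO 2 or SMRT-KO 3, that of Grin2d also without NCoR1-KO 1 and that of Cacng8 without control 3 or control 4, at adjusted p of up to 0.153 with single libraries left out. Grin2b, the GluN2B subunit, followed Grin2a, at 24.41, 24.14 and 28.11 TPM in NCoR1-KO against 102.82, 66.97 and 85.04 TPM in SMRT-KO, with 59.98, 59.89, 77.89 and 42.24 TPM in control (-1.68 ± 0.20, adjusted p = 0.00206). Grin1, the subunit shared by all NMDA receptors, rose slightly instead, at 411.94, 426.92 and 438.16 TPM in NCoR1-KO against 373.21, 378.00 and 376.05 TPM in SMRT-KO, with 368.76, 390.27, 350.96 and 380.48 TPM in control (0.18 ± 0.05, adjusted p = 0.0403). Grik4, a kainate receptor subunit, fell by 0.37 ± 0.10 (adjusted p = 0.0372). The Grin1 and Grik4 calls were each lost without NCoR1-KO 1, NCoR1-KO 2, NCoR1-KO 3, SMRT-KO 1, SMRT-KO 2 or SMRT-KO 3, at adjusted p of up to 0.119 with single libraries left out, and that of Grin2b was kept.

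Of 7 metabotropic glutamate receptors, 0 rose and 2 fell. Grm3, an inhibitory receptor of astrocytes and presynaptic terminals, measured 29.77, 28.01 and 31.62 TPM in NCoR1-KO against 64.33, 88.69 and 78.76 TPM in SMRT-KO, with 34.85, 31.55, 43.92 and 44.35 TPM in control (-1.33 ± 0.14, adjusted p = 0.0013). SMRT-KO stood well above all other libraries. Grm4 fell by 0.64 ± 0.15 (adjusted p = 0.0234), a call lost without NCoR1-KO 1, NCoR1-KO 2, NCoR1-KO 3, SMRT-KO 2 or SMRT-KO 3, at adjusted p of up to 0.0911 with single libraries left out. Of 17 GABA receptor genes, 0 rose and 4 fell, and the median was 0.01. Gabrg3 measured 4.68, 6.99 and 8.43 TPM in NCoR1-KO against 15.78, 16.94 and 16.24 TPM in SMRT-KO, with 11.19, 8.62, 13.52 and 8.29 TPM in control (-1.20 ± 0.20, adjusted p = 0.00799). Gabrd, the subunit of extrasynaptic receptors, fell by 0.89 ± 0.15 (adjusted p = 0.00838). Both calls were kept with every library left out, whereas those of Gabrb1 (-0.56 ± 0.15, adjusted p = 0.0379) and Gabrb2 (-0.35 ± 0.08, adjusted p = 0.0257) were lost without NCoR1-KO 1, NCoR1-KO 2 or SMRT-KO 3, at adjusted p of up to 0.129 with single libraries left out.

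Of 33 genes of GABA synthesis and interneurons, 0 rose and 5 fell, at a median of -0.03. Besides Erbb4 and Pvalb these included Lamp5 (-0.79 ± 0.21, adjusted p = 0.0365) and Ndnf (-0.62 ± 0.15, adjusted p = 0.0299), both known from neurogliaform interneurons. Lamp5 measured 109.39, 100.94 and 109.27 TPM in NCoR1-KO against 131.97, 274.12 and 173.57 TPM in SMRT-KO, with 107.96, 104.31, 99.01 and 131.27 TPM in control. SMRT-KO 2 was its highest library, as it was for Pvalb, at 23.50, 15.68 and 18.20 TPM in NCoR1-KO against 36.09, 100.83 and 60.78 TPM in SMRT-KO, with 26.07, 14.61, 22.48 and 29.92 TPM in control. The Lamp5, Ndnf and Pvalb calls were lost without NCoR1-KO 2, SMRT-KO 2 or SMRT-KO 3, at adjusted p of up to 0.113 with single libraries left out.

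Of 31 receptors for glycine, monoamines and opioids, 3 rose and 2 fell (16.1%, beside 11.5% of all genes tested). Oprm1, the mu opioid receptor, was low throughout, at 0.30, 0.49 and 0.47 TPM in NCoR1-KO against 3, 2.13 and 2.89 TPM in SMRT-KO, with 1.65, 1.39, 1.74 and 0.57 TPM in control (-1.37 ± 0.21, adjusted p = 0.00662). Oprl1, the nociceptin receptor, rose by 0.54 ± 0.12 (adjusted p = 0.0235) and Glra2, a glycine receptor subunit, by 0.65 ± 0.15 (adjusted p = 0.0267). Adra1a, an alpha-1 adrenergic receptor, fell by 0.87 ± 0.16 (adjusted p = 0.013). The Oprm1 call was kept with every library left out, and the other 3 were lost without SMRT-KO 2, at adjusted p of up to 0.092 with single libraries left out.

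Among 29 neuropeptide genes, 2 rose and 1 fell. Vgf, a granin-family neuropeptide precursor induced by neurotrophins, measured 258.75, 243.90 and 249.28 TPM in NCoR1-KO against 176.38, 171.03 and 170.44 TPM in SMRT-KO, with 188.66, 246.76, 202.15 and 170.52 TPM in control (0.54 ± 0.10, adjusted p = 0.0153). Scg2, secretogranin II, rose by 0.50 ± 0.14 (adjusted p = 0.0433) and Pdyn, prodynorphin, fell by 1.00 ± 0.24 (adjusted p = 0.0295). Of 25 neuropeptide receptors, 1 rose, Hcrtr1, and 1 fell. Crhr1, a receptor for corticotropin-releasing hormone, fell by 0.73 ± 0.15 (adjusted p = 0.0186). These 4 calls were lost without SMRT-KO 2 or SMRT-KO 3, at adjusted p of up to 0.144 with single libraries left out.

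In the synaptic vesicle and release machinery 4 of 34 genes rose and 4 fell, with a median of 0.05. Snap47, a SNAP-25 relative, measured 518.86, 509.82 and 509.19 TPM in NCoR1-KO against 425.81, 427.42 and 423.09 TPM in SMRT-KO, with 431.82, 454.04, 433.61 and 450.85 TPM in control, so that NCoR1-KO was above every other library (0.27 ± 0.04, adjusted p = 0.00608). Pclo, the active zone scaffold Piccolo, fell by 0.61 ± 0.11 (adjusted p = 0.00943). The Snap47 and Pclo calls were kept with every library left out. Slc17a6, the vesicular glutamate transporter of subcortical neurons, rose by 0.71 ± 0.13 (adjusted p = 0.0115), and Syt2, a fast calcium sensor, fell by 1.82 ± 0.45 (adjusted p = 0.0302). Both calls were lost without NCoR1-KO 2 or SMRT-KO 3, at adjusted p of up to 0.113 with single libraries left out.

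Of 33 cadherin-family genes, 2 rose and 7 fell, with a median of -0.09. Clstn2, a synaptic calsyntenin, measured 37.14, 36.09 and 40.18 TPM in NCoR1-KO against 60.29, 69.32 and 58.01 TPM in SMRT-KO, with 42.57, 43.29, 45.29 and 47.55 TPM in control (-0.71 ± 0.08, adjusted p = 0.0013). Fat3, an atypical cadherin of dendrite formation, fell by 1.00 ± 0.14 (adjusted p = 0.00435), and Cdh12 by 1.18 ± 0.21 (adjusted p = 0.0115). For these 3 genes the call was kept with every library left out. Celsr3, which guides axon tracts, rose by 0.54 ± 0.12 (adjusted p = 0.0215), a call lost without NCoR1-KO 2, NCoR1-KO 3, SMRT-KO 2 or SMRT-KO 3, at adjusted p of up to 0.085 with single libraries left out. Of 30 neurotrophin, neuregulin and bone morphogenetic protein signalling genes, 0 rose and 4 fell: Bmpr2, Erbb4, Nrg1 (-0.60 ± 0.12, adjusted p = 0.0148) and the oligodendrocyte receptor Erbb3 (-0.91 ± 0.22, adjusted p = 0.0291). The Nrg1 and Erbb3 calls were lost without SMRT-KO 2 or SMRT-KO 3, at adjusted p of up to 0.109 with single libraries left out.

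In the cytoskeleton list 3 of 19 genes rose and 2 fell. Tubb2a, a neuronal beta tubulin, measured 1748.13, 1626.25 and 1676.52 TPM in NCoR1-KO against 1379.54, 1157.61 and 1226.55 TPM in SMRT-KO, with 1443.30, 1582.23, 1412.26 and 1484.26 TPM in control (0.43 ± 0.07, adjusted p = 0.00827, kept with every library left out). Gap43, the growth-cone protein, rose by 0.53 ± 0.11 (adjusted p = 0.0184), and Mapt, the gene of tau, by 0.21 ± 0.04 (adjusted p = 0.0201). The Gap43 and Mapt calls were lost without NCoR1-KO 1, NCoR1-KO 2 or SMRT-KO 3, at adjusted p of up to 0.085 with single libraries left out.

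All 19 striatal markers tested were lower in NCoR1-KO, and their median was -1.08. For 15 of them the libraries did not overlap (19.6% of all genes tested were lower in this way), and 4 were called lower (6.46% of all genes tested). The list score of a library (the median log2 deviation of the list's genes from their mean over the 10 libraries) was 0.18, -0.61 and -0.46 in NCoR1-KO, 0.47, 0.40 and 1.14 in SMRT-KO, and -0.38, -1.01, 0.55 and -0.23 in control. SMRT-KO 3 was the most striatal library, and control 3 stood near SMRT-KO. Pde10a, the phosphodiesterase of medium spiny neurons, measured 57.79, 44.16 and 54.01 TPM in NCoR1-KO against 94.03, 92.60 and 179.45 TPM in SMRT-KO, with 48.84, 42.96, 111.47 and 58.21 TPM in control (-1.15 ± 0.33, adjusted p = 0.0485). Foxp1 (-1.08 ± 0.22, adjusted p = 0.0176), Syndig1l (-1.36 ± 0.39, adjusted p = 0.0498) and Gng7 (-0.70 ± 0.20, adjusted p = 0.047) fell as well. All 4 calls were lost without NCoR1-KO 2, SMRT-KO 2 or SMRT-KO 3, at adjusted p of up to 0.164 with single libraries left out. Those of Pde10a, Syndig1l and Gng7 were also lost without NCoR1-KO 1, NCoR1-KO 3 or control 4.

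Hypothalamic markers stood the other way, with 10 of 14 above 0, 3 called higher (Hap1, Baiap3 and Magel2) and a median of 0.31. Their score was 0.16, 0.62 and 0.01 in NCoR1-KO, -0.13, -0.20 and -0.47 in SMRT-KO, and 0.18, 0.18, 0.65 and -0.47 in control, so controls spanned both knockouts. The defining hypothalamic genes Agrp, Hcrt, Six6, Hmx2, Rax and Nr5a1 did not reach the level needed for testing. Of 16 thalamic markers, 1 rose and 4 fell, among them Ramp3 (-1.41 ± 0.28, adjusted p = 0.016) and Lef1 (-0.47 ± 0.11, adjusted p = 0.0263). Both calls were lost without NCoR1-KO 2, SMRT-KO 2 or SMRT-KO 3, at adjusted p of up to 0.102 with single libraries left out.

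The amygdala's own markers were present in all groups. Excitatory markers of the basolateral nucleus summed to 3477 to 3842 TPM in NCoR1-KO, 3949 to 4262 TPM in SMRT-KO and 3231 to 4027 TPM in control, and markers of the central nucleus to 1703 to 2151 TPM in NCoR1-KO, 1637 to 2127 TPM in SMRT-KO and 1639 to 2098 TPM in control. Of 20 basolateral markers, 1 rose and 4 fell, with a median of -0.37. Dkk3, a secreted protein of basolateral and cortical neurons, measured 68.32, 71.77 and 70.67 TPM in NCoR1-KO against 96.46, 183.13 and 107.42 TPM in SMRT-KO, with 70.49, 68.32, 55.48 and 80.74 TPM in control (-0.81 ± 0.20, adjusted p = 0.0315). Sema3e (-0.73 ± 0.19, adjusted p = 0.0335), Cplx1 (-0.50 ± 0.13, adjusted p = 0.0363) and Rorb (-0.59 ± 0.16, adjusted p = 0.0373) also fell, and all 4 calls were lost without NCoR1-KO 1, NCoR1-KO 2, SMRT-KO 2 or SMRT-KO 3, at adjusted p of up to 0.134 with single libraries left out. Of 19 central amygdala markers 2 rose, Nr2f2 and the serotonin receptor Htr2c (0.65 ± 0.17, adjusted p = 0.0339), and 1 fell, Pdyn. Of 17 intercalated and medial markers 1 rose, Nr2f2, and 1 fell. The Htr2c call was lost without NCoR1-KO 1, NCoR1-KO 2, NCoR1-KO 3, SMRT-KO 2 or SMRT-KO 3, at adjusted p of up to 0.104 with single libraries left out.

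**Figure D3:**
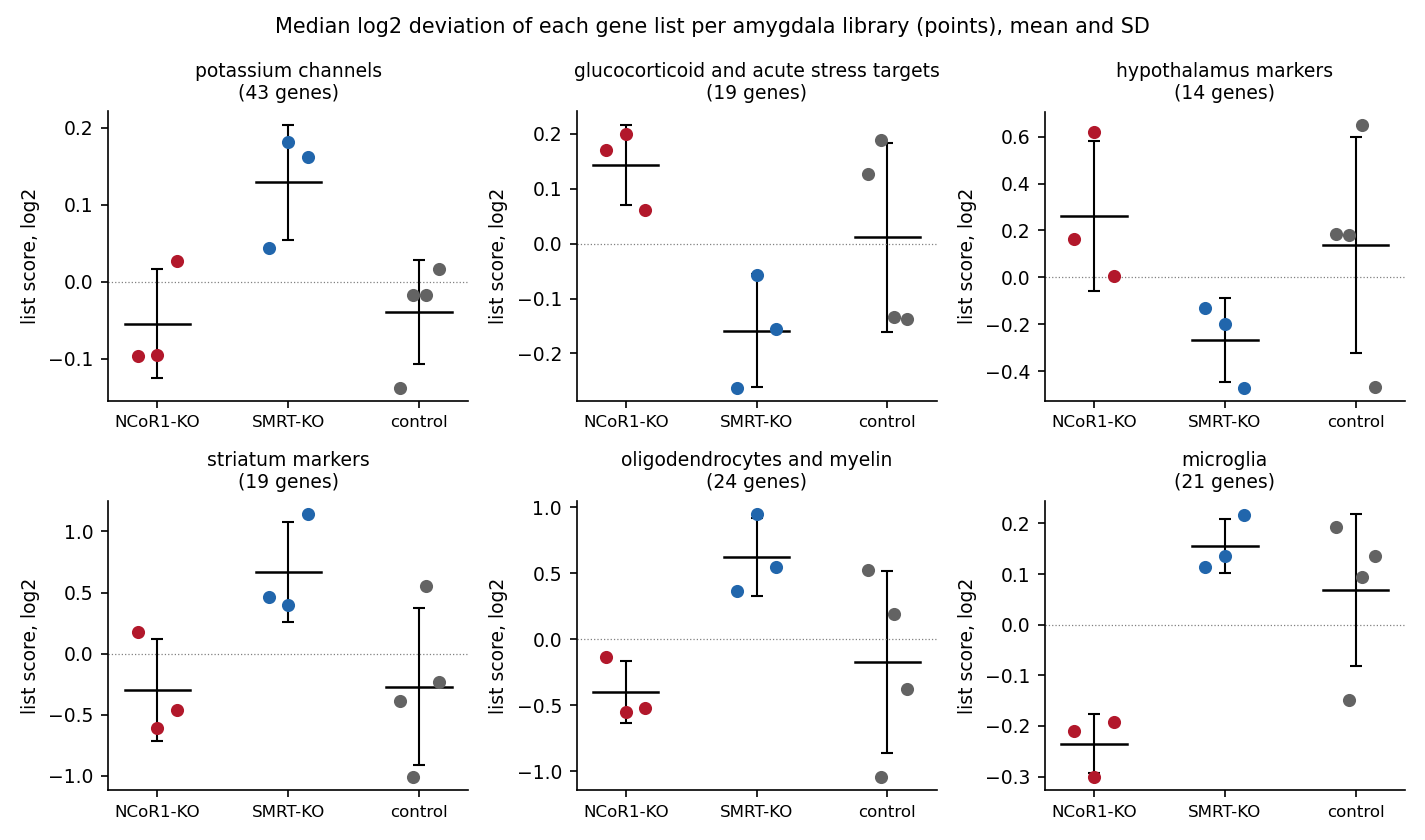
Score of 6 gene lists in each amygdala library (points), the median log2 deviation of a list's genes from their mean over the 10 libraries, with the mean (line) and standard deviation (bar) of NCoR1-KO, SMRT-KO and control. Striatal, oligodendrocyte and microglial scores of all SMRT-KO libraries lie above those of all NCoR1-KO libraries. Control libraries spread over both knockouts in the striatal and oligodendrocyte scores, and all lie above NCoR1-KO in the microglial score.

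Oligodendrocyte and microglial genes were lower in NCoR1-KO than in SMRT-KO. In bulk tissue, fewer cells of a type and less RNA per cell cannot be told apart. All 24 oligodendrocyte and myelin genes were lower with non-overlapping libraries (19.6% of all genes tested), 6 passed, and the median was -1.03. Their score was -0.13, -0.55 and -0.52 in NCoR1-KO, 0.37, 0.95 and 0.55 in SMRT-KO, and 0.53, -1.04, 0.19 and -0.37 in control, so the 4 controls alone covered a wider range than either knockout. The summed level was 4628 to 6188 TPM in NCoR1-KO, 9216 to 13825 TPM in SMRT-KO and 3247 to 10935 TPM in control. Mbp, myelin basic protein, measured 2488.18, 1755.41 and 1770.57 TPM in NCoR1-KO against 3677.53, 5746.52 and 4189.06 TPM in SMRT-KO, with 4457.68, 1200.50, 3308.83 and 1929.02 TPM in control, and did not pass (-1.17 ± 0.40, adjusted p = 0.0765).

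Among the myelin genes that passed were Ugt8a, which makes galactocerebroside (-1.48 ± 0.40, adjusted p = 0.0385), the cytoskeletal Ermn (-1.11 ± 0.30, adjusted p = 0.0386) and Tspan2 (-1.08 ± 0.30, adjusted p = 0.0433). Ugt8a measured 66.45, 49.97 and 49.83 TPM in NCoR1-KO against 131.78, 196.83 and 144.36 TPM in SMRT-KO, with 141.31, 35.89, 111.17 and 69.33 TPM in control, so controls overlapped both knockouts. These 3 calls were lost without NCoR1-KO 1, NCoR1-KO 2, NCoR1-KO 3, SMRT-KO 2 or SMRT-KO 3, at adjusted p of up to 0.147 with single libraries left out.

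All 21 microglial genes were lower in NCoR1-KO, at a median of -0.36. Of them 19 had non-overlapping libraries and 11 were called, beside 19.6% and 6.46% of all genes tested. P2ry12, the purinergic receptor of resting microglia, measured 65.29, 60.13 and 55.69 TPM in NCoR1-KO against 83.84, 92.31 and 91.12 TPM in SMRT-KO, with 87.47, 65.44, 81.28 and 94.66 TPM in control (-0.56 ± 0.12, adjusted p = 0.0185). Every NCoR1-KO library lay below every other library, and SMRT-KO lay within the control range. Cx3cr1, the fractalkine receptor, fell by 0.36 ± 0.08 (adjusted p = 0.0208), and the complement gene C1qb by 0.40 ± 0.08 (adjusted p = 0.018). The microglial score was -0.21, -0.30 and -0.19 in NCoR1-KO, 0.11, 0.14 and 0.22 in SMRT-KO, and 0.19, -0.15, 0.09 and 0.14 in control, with every control above every NCoR1-KO library. The calls of P2ry12, Cx3cr1 and C1qb were lost without NCoR1-KO 2, SMRT-KO 2 or SMRT-KO 3, at adjusted p of up to 0.0769 with single libraries left out. Cx3cr1 overlaps another gene on its strand.

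Of 21 astrocyte genes, 0 rose and 2 fell, at a median of -0.08. Slc1a2, the main glutamate transporter of astrocytes, measured 1023.22, 1034.02 and 1119.21 TPM in NCoR1-KO against 1465.19, 1674.37 and 1600.31 TPM in SMRT-KO, with 1434.75, 1330.11, 1387.79 and 1565.69 TPM in control. NCoR1-KO was below every other library (-0.58 ± 0.07, adjusted p = 0.00289), and the call was kept with every library left out. Aqp4, the water channel of astrocyte endfeet, fell by 0.48 ± 0.12 (adjusted p = 0.0306), a call lost without NCoR1-KO 1, NCoR1-KO 2, SMRT-KO 2 or SMRT-KO 3, at adjusted p of up to 0.108 with single libraries left out. Of 26 genes of vessels and fibroblasts 0 rose and 3 fell, at a median of -0.21. Of 15 oligodendrocyte precursor genes 0 rose and 1 fell, at -0.21, and of 15 choroid plexus and ependymal genes 0 rose and 1 fell, at -0.55. Choroid plexus markers summed to 204 to 222 TPM in NCoR1-KO, 434 to 1048 TPM in SMRT-KO and 163 to 1514 TPM in control.

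Circadian clock genes changed in both directions, with 4 of 17 higher and 3 lower in NCoR1-KO. Arntl, the activator BMAL1, measured 32.28, 35.36 and 34.39 TPM in NCoR1-KO against 26.53, 25.66 and 23.26 TPM in SMRT-KO, with 27.82, 28.86, 25.23 and 27.56 TPM in control, highest in every NCoR1-KO library (0.42 ± 0.07, adjusted p = 0.0088). Its partner Clock measured 26.36, 29.77 and 32.27 TPM in NCoR1-KO against 46.73, 47.66 and 44.76 TPM in SMRT-KO, with 36.94, 38.38, 43.55 and 34.79 TPM in control, lowest in every NCoR1-KO library (-0.64 ± 0.09, adjusted p = 0.00435). Both calls were kept with every library left out. Nfil3, a repressor of clock output, rose by 0.90 ± 0.18 (adjusted p = 0.0173), and Per1, an inhibitor of the activators, by 0.47 ± 0.13 (adjusted p = 0.0444). The calls of Nfil3 and Per1 were lost without NCoR1-KO 2 or SMRT-KO 3, at adjusted p of up to 0.146 with single libraries left out. That of Per1 was also lost without any other knockout library, or without control 1 or control 4. The hour of tissue collection is not given in the labels.

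Of 19 glucocorticoid and acute stress targets, 4 rose and 0 fell, 10 had higher non-overlapping libraries (18.8% of all genes tested), and the median was 0.32. Ddit4, an inhibitor of mTOR signalling, measured 64.39, 62.87 and 66.43 TPM in NCoR1-KO against 42.25, 42.36 and 44.46 TPM in SMRT-KO, with 56.32, 63.23, 54.10 and 39.74 TPM in control (0.57 ± 0.13, adjusted p = 0.0234). Nfkbia (0.30 ± 0.07, adjusted p = 0.0294), Map3k6 (0.61 ± 0.16, adjusted p = 0.0401) and Per1 rose too. The list score was 0.17, 0.20 and 0.06 in NCoR1-KO, -0.26, -0.06 and -0.16 in SMRT-KO, and 0.13, 0.19, -0.13 and -0.14 in control. Controls 1 and 2 stood at the level of NCoR1-KO and controls 3 and 4 at that of SMRT-KO, the split of AA465934. Immediate early genes had a similar median of 0.34, but of 28 only Gadd45g rose (0.59 ± 0.13, adjusted p = 0.0235), while Ier5 (-0.74 ± 0.18, adjusted p = 0.0305), Homer1 (-0.64 ± 0.15, adjusted p = 0.0267) and Inhba (-0.96 ± 0.24, adjusted p = 0.033) fell. The calls of all 8 genes were lost without NCoR1-KO 1, NCoR1-KO 2, SMRT-KO 2 or SMRT-KO 3, at adjusted p of up to 0.146 with single libraries left out.

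Of 11 nuclear long noncoding and ribosomal precursor RNAs, 4 rose and 1 fell in NCoR1-KO, at a median of 0.25. Meg3, the maternally expressed RNA of the Dlk1 locus, measured 3128.41, 3065.82 and 2879.97 TPM in NCoR1-KO against 2357.61, 1704.62 and 1743.53 TPM in SMRT-KO, with 3461.76, 2958.38, 2808.76 and 2687.39 TPM in control (0.66 ± 0.13, adjusted p = 0.0137). SMRT-KO lay below all other libraries. Mirg, from that same imprinted locus, rose by 0.57 ± 0.10 (adjusted p = 0.0114), Snhg11 by 0.43 ± 0.08 (adjusted p = 0.012) and Miat by 0.41 ± 0.11 (adjusted p = 0.045). The Mirg call was kept with every library left out, and those of Meg3, Snhg11 and Miat were lost without NCoR1-KO 2, SMRT-KO 2 or SMRT-KO 3, at adjusted p of up to 0.151 with single libraries left out. The ribosomal RNA precursor Rn45s took 1.37%, 1.23% and 1.49% of the TPM in NCoR1-KO, 3.26%, 1.77% and 2.35% in SMRT-KO, and 1.76%, 1.25%, 2.15% and 1.41% in control. It fell by 0.81 ± 0.23 (adjusted p = 0.0476; exact permutation p = 0.1, the smallest possible), and a larger share lowers the TPM of every other gene. Without it in the total, 1592 genes were called, 34.4% of them higher, beside 43.8% as deposited.

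Metabolic and housekeeping lists had smaller shares of calls than the 11.5% of all genes tested. Of 44 ribosomal protein genes 2 rose and 0 fell, at a median of 0.06, and of 38 respiratory chain genes 1 rose and 0 fell, at 0.05. Of 24 cholesterol synthesis genes 0 rose and 1 fell, at -0.18, with 12 lower and non-overlapping (19.6% of all genes tested). Heat shock genes had 0 rises and 2 falls of 20, at 0.16, though 16 of the 20 lay above 0. With non-overlapping libraries 12 of the 20 were higher (18.8% of all genes tested) and 2 were lower. Genes of endoplasmic reticulum stress had 0 rises and 1 fall of 19, at 0.09. Targets of other nuclear receptors had shares near or below that of all genes, with 1 rise and 1 fall of 16 for retinoic acid (12.5%), 1 and 1 of 13 for LXR (15.4%), and 1 and 0 of 22 for PPAR (4.55%). Of 23 interferon genes, 7 haemoglobin and red cell genes and 19 hippocampal markers, 0 passed, and of 17 maturation and progenitor genes 0 rose and 2 fell (11.8%). Postsynaptic scaffolds had 1 rise and 3 falls of 25 (16%), and cortical layer markers 0 rises and 5 falls of 20 (25%).

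Gene length moved with the comparison. Called lower genes had a median transcript length of 5674 bases, a GC content of 45.9% and a span of 74.9 kb, against 3157 bases, 50.2% and 24.9 kb over all genes tested. Called higher genes were shorter, at 2839 bases, 53.4% GC and 17 kb. Among the longest 10% of transcripts, 6748 bases or more, 26.4% of genes were called lower and 2.01% higher, and the median difference was -0.14. The median against control was -0.14 for NCoR1-KO and 0.0005 for SMRT-KO. Among the shortest 10%, 2.07% were lower and 4.91% higher, at a median of 0.04. The median score of the longest transcripts was -0.22, -0.05 and -0.04 in NCoR1-KO, 0.07, 0.01 and 0.05 in SMRT-KO, and 0.02, 0.03, 0.10 and 0.03 in control, with NCoR1-KO 1 lowest. With the trend of length and GC taken out of each library, 1529 genes were called, 53.8% of them higher, and 1179 were among the 1679. Of the 219 genes that passed with each library left out, 206 also passed then. The calls of Kcna2, Pclo and Nsd1, given above as kept with every library left out, ended with that trend removed.

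**Figure D4:**
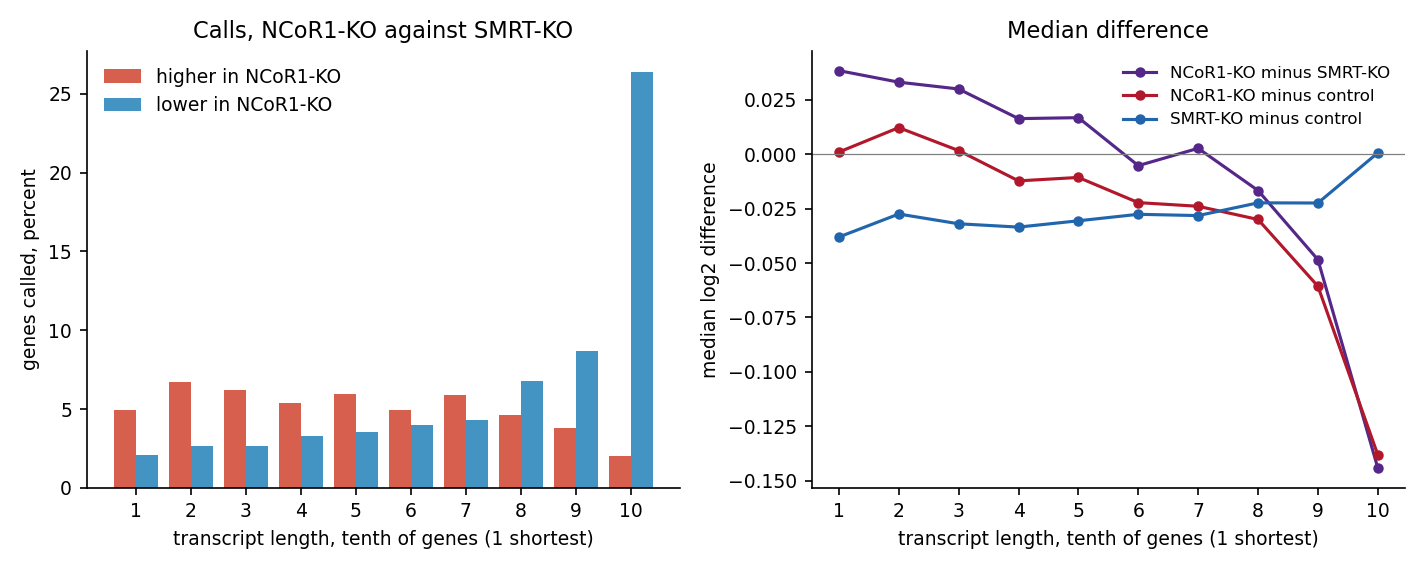
Genes in 10 equal bins of transcript length, from the shortest (1) to the longest (10). Left, percent of genes called higher or lower in NCoR1-KO against SMRT-KO. Right, median log2 difference for NCoR1-KO minus SMRT-KO, NCoR1-KO minus control and SMRT-KO minus control. Calls of lower genes are at 26.4% in the last bin, where the median against control is -0.14 in NCoR1-KO and 0.0005 in SMRT-KO.

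The alternatives included the fit without the 3 libraries with liver transcripts, where NCoR1-KO 1 was the only library of its group. Passing that fit adds no support to a call. Under every alternative run, each left-out library and each marker score included, a set of 20 genes passed, and all were lower in NCoR1-KO. They included Ncor1, 2 predicted genes, and Bmpr2, Camk4, Clstn2, Dgki, Grin2a, Itga1, Kcnma1, Kcnq3, Kctd16, Mib1, Ptpn4, Rora, Slc16a7, Sntb2, Zbed6 and Zfp369. Those outside the ranked genes and gene lists were singled out after their values were seen. Camk4, a calcium-dependent kinase of the neuronal nucleus, measured 111.38, 98.29 and 111.08 TPM in NCoR1-KO against 181.94, 177.14 and 203.37 TPM in SMRT-KO, with 135.88, 129.11, 155.23 and 129.58 TPM in control (-0.80 ± 0.08, adjusted p = 0.0013). For Camk4 all controls lay between the knockouts. Dgki, a diacylglycerol kinase, fell by 1.87 ± 0.17, Slc16a7, the neuronal monocarboxylate transporter, by 1.62 ± 0.16, and Mib1, an E3 ligase of Notch ligands, by 1.23 ± 0.12.

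The same contrast in hippocampus called 0 genes of 14501 in limma, and 956 had an unadjusted p under 0.05. Standard errors there were larger than in amygdala for some genes (Bmpr2, 0.87 against 0.23) and smaller for others (Cdh12, 0.15 against 0.21). The lack of calls therefore does not show that the differences are absent in hippocampus. Of the 1655 amygdala calls also tested there, 934 had the same sign in hippocampus, 56.4% beside 55.4% of all genes tested in both. The directions differed in this. Of 727 genes called higher, 485 were above 0 in hippocampus, while of 928 called lower, 479 were above 0 there. For the longest 10% of transcripts the median difference was 0.07 in hippocampus and -0.14 in amygdala. Ncor1 differed by -1.73 in amygdala and -1.24 in hippocampus. A joint fit of the 20 libraries tested whether the difference between the knockouts itself differed between the tissues, and 3 of 14210 genes passed (0.0211%; 2100 had an unadjusted p under 0.05). With libraries of the same number and genotype taken as a block, 0 passed, at a smallest adjusted p of 0.0845. The labels do not say whether such libraries share an animal. Grm3 measured 22.83, 26.40 and 21.45 TPM in NCoR1-KO hippocampus and 24.24, 22.26 and 22.43 TPM in SMRT-KO hippocampus, with none of the amygdala's gap, and the tissues differed by -1.37 ± 0.20 (adjusted p = 0.033). Kctd16, an auxiliary subunit of GABA-B receptors, measured 14.06, 16.12 and 17.64 TPM in NCoR1-KO amygdala, 39.87, 40.74 and 46.71 TPM in SMRT-KO amygdala, and 15.75, 21.54, 24.16 and 17.39 TPM in control amygdala. In hippocampus it was at 13.32, 12.71 and 14.13 TPM in NCoR1-KO and 15.44, 11.74 and 12.61 TPM in SMRT-KO, and the tissues differed by -1.38 ± 0.21 (adjusted p = 0.033).

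Hcrtr1, an orexin receptor, had differences of opposite sign in the tissues. It measured 5.80, 8.04 and 5.52 TPM in NCoR1-KO amygdala, 4.40, 3.84 and 3.26 TPM in SMRT-KO amygdala, and 4.28, 4.28, 4.87 and 3.55 TPM in control amygdala. Hippocampus held 2.07, 2.56 and 2.08 TPM in NCoR1-KO and 4.28, 3.39 and 4.37 TPM in SMRT-KO, and the tissues differed by 1.24 ± 0.20 (adjusted p = 0.033). No gene passed this joint test without amygdala NCoR1-KO 1 or 2 or SMRT-KO 2 or 3, or without hippocampus NCoR1-KO 1, 2 or 3 or SMRT-KO 2 or 3. Without amygdala SMRT-KO 1, 38 genes passed, and without hippocampus SMRT-KO 1, 488 did.

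**Figure D5:**
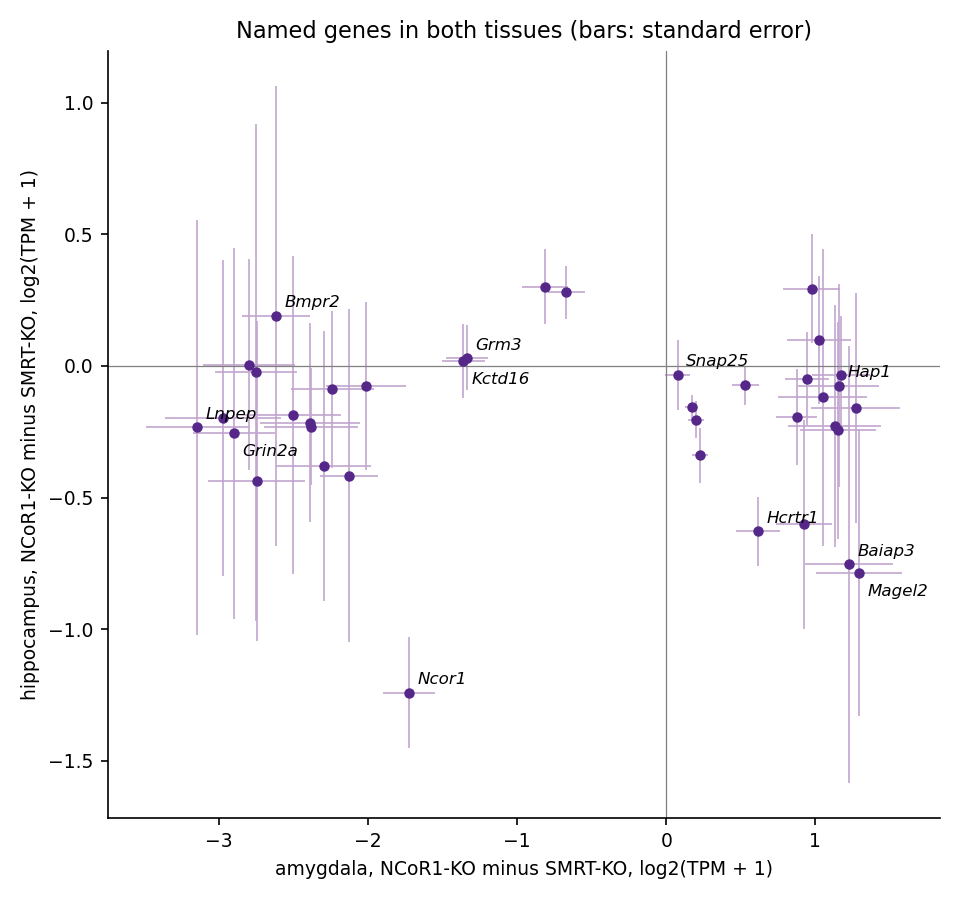
Difference between NCoR1-KO and SMRT-KO (log2(TPM + 1)) in amygdala (horizontal) and hippocampus (vertical) for genes named by rank and tested in both tissues, with standard errors. Ncor1 is low in both tissues, at -1.73 and -1.24, while most of the other genes have hippocampal differences within their standard error of 0 or close to it. Where that standard error is wide, the hippocampal difference is uncertain rather than shown to be absent.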

How the data were processed

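Bulk RNA was extracted with a lipid tissue kit and made into stranded mRNA libraries, per the labels' protocols. TPM values per gene symbol were used as the authors deposited them. The submitters' processing notes name bcl2fastq, fastp 0.21.0, STAR 2.5.3a, RSEM 1.3.3 and mm10, and no annotation. TPM keeps no read depth, so the depth behind each value is unknown. Genes at 1 TPM or more in at least 3 of the 10 amygdala libraries were tested as log2(TPM + 1), which understates fold changes of low genes. One limma model (limma 3.58.1, R 4.3.3, variance trend, Benjamini-Hochberg threshold 0.05, 7 residual degrees of freedom) held NCoR1-KO, SMRT-KO and control, and was tested on simulated data. Called means past that threshold. Of 23412 symbols, 21737 matched GENCODE M21 (mm10) by symbol and 1275 by an older symbol. The genes compared, the 47 gene lists and the tests were chosen with earlier results of these data known. Named genes were Ncor1, Snap25, the 14 called genes of largest difference in each direction without predicted ones, the first 2 and the 4 of smallest p of each list, and up to 6 genes a direction for the tissue difference. Some genes, the one targeted in SMRT-KO among them, are not reported here and were left out of these rankings. Alternatives were other pseudocounts, filters, scalings and variance models, a replicate block and each library left out. Chosen after seeing the data were removal of the length and GC trend, the marker scores as covariates, omission of the 3 libraries with liver transcripts, and a block on number and genotype in the joint model.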

Additional observations from a re-analysis of the deposited data

Results flagged for a closer look

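Of 30 genes whose 4 amygdala controls were examined, 2 had a control library far from the other controls (a gap, as a share of the group's range, above Dixon's critical value for 4 samples, which chance gives in about 1 in 20 groups). Ncor1 was at 71.28 TPM in control 1, against 117.39 to 126.54 TPM in the other controls, and its hippocampal level was also lowest of the controls in control 1, at 81.58 TPM. Ctxn2, which encodes a cortexin-family membrane protein, was at 13.15 TPM in control 4, against 16.90 to 17.17 TPM in the other controls.

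The difference between the knockouts itself differed between amygdala and hippocampus for 3 genes in the joint limma fit, each at an adjusted p of 0.033. In the fit with libraries of the same number and genotype as a block 0 genes passed, at a smallest adjusted p of 0.0845. The amygdala minus hippocampus difference was -1.37 for Grm3, -1.38 for Kctd16 and 1.24 for Hcrtr1.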

How the results depend on the processing

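The 1679 calls (735 higher, 944 lower) ranged from 246 to 2218 with single libraries left out, lowest without SMRT-KO 3 and highest without control 2. Higher calls ranged from 53 to 954 and lower calls from 193 to 1264. Without a variance trend 444 higher genes were called. Without the 3 libraries holding liver transcripts 240 genes were called, 13 higher and 227 lower. The oligodendrocyte score as covariate left 25 calls, 1 higher and 24 lower, and the striatum score 31 calls, 2 higher and 29 lower. With the length and GC trend removed 53.8% of the calls were higher, and with quantile normalization 49.8%, beside 43.8%. With the replicate number as a block (replicate block) 854 genes were called, 307 higher and 547 lower. Same-numbered knockout libraries did not deviate together (r of -0.16, -0.25 and -0.04). With 3 libraries a group these values cannot show whether such libraries share more than a number, and the labels do not say.

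The 3 calls between tissues became 7 with no filter on low values, 0 with quantile normalization, 0 with the replicate block and 0 with a replicate block on number and genotype, and ranged from 0 to 488 with single libraries left out. In that last block limma gave a smallest adjusted p of 0.0845 and 2599 genes with an unadjusted p under 0.05. Deviations of same-numbered libraries of the 2 tissues had r of 0.0008 to 0.48. In control 3, control 4 and SMRT-KO 3 that r was below the highest r with another number of their group.

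Sign changes among single genes were 7, and Rn45s was the only one of these genes called in the comparison. Rn45s, the tested gene of highest mean TPM over the 6 libraries, moved to 0 under quantile normalization. That scaling gives genes of equal rank the same value in every library. Thrb moved to 0.036 with the length and GC trend removed, and ranged from -0.17 to 0.036 with single libraries left out. Under the oligodendrocyte covariate the Snap25 log2 difference moved to -0.00896, the Thra log2 difference to -0.00763 and the Mbp log2 difference to 0.0608, and under the striatum covariate that of Snap25 moved to -0.0081. The cause was not tested for any of these changes. The call of Ncor1 was kept under all alternatives run, at adjusted p of up to 0.0101 with single libraries left out. With 3 libraries a group, permutation of 1 gene cannot go below p = 0.1, and unknown depth limits what low values can show.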

Other observations

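AA465934, 2610507I01Rik and Gm1821 were the 3 genes whose libraries fell into levels more than 1 log2 unit apart with the controls divided between them. They were singled out after their values were seen. Gm1821 measured 357.64, 357.19 and 355.73 TPM in NCoR1-KO against 153.14, 125.12 and 111.95 TPM in SMRT-KO, with 354.71, 377.59, 108.15 and 128.59 TPM in control amygdala. 2610507I01Rik measured 0.95, 1.58 and 0.97 TPM in NCoR1-KO against 16.35, 17.63 and 18.31 TPM in SMRT-KO, with 1.32, 1.29, 16.51 and 18.52 TPM in control amygdala. In hippocampus 2610507I01Rik measured 0.98, 0.97 and 1.17 TPM in NCoR1-KO against 18.84, 18.41 and 18.65 TPM in SMRT-KO, with 1.19, 1.07, 19.31 and 19.39 TPM in control, so the controls of the same numbers divided the same way.

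Of 517 X-linked genes tested in amygdala, 68 (13.2%) were called higher in NCoR1-KO than in SMRT-KO and 31 lower, beside 4.73% higher and 6.48% lower of genes on other chromosomes. Within 10 Mb of Ncor1, 34 of 255 genes were called (13.3%), and 11.6% were called within 20 Mb, both close to the 11.5% of all genes tested.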
